A study of Danio rerio with 9 samples.

Results

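Kinesins are motor proteins that use ATP to move along microtubules or to reshape them. The genes of this superfamily were taken from the expression table by name: every row called *kif* with a number, every *kifap3* row (the accessory subunit of the kinesin-2 motor) and every *klc* row (the light chains of kinesin-1). The rule found 51 genes among 33737 rows, and all 51 passed the filter on low values that left 21982 genes for testing. By the symbol they were placed in 11 ciliary, 27 axonal and vesicle, 11 mitotic and 2 other genes (*KIF2A* and *KIF25*). Gene names with capitals or with a note such as (1 of 2) are names the deposited table carries over from other species, and 9 of the 51 identifiers had no symbol in the names table used here.

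RNA came from whole zebrafish embryos of the TuAB strain at 72 hpf, in 3 pools of 30 embryos for each of 3 groups. The groups were wild-type embryos, *MZcep290-/-* mutants, which lack both maternal and zygotic wild-type *cep290* because 10 bp of exon 16 are deleted, and *cep290ex25* morphants, which received a morpholino against the splice donor of exon 25. The mutants descend from 1 CRISPR allele, and no library from embryos injected with a control morpholino was analysed here, so an effect of injection cannot be told apart from that of the morpholino's target. The study asked which genes differ between a lasting and an acute loss of Cep290, a protein of the ciliary transition zone. Both the mutants and the morphants were compared with the same 3 wild-type libraries.

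Members of the superfamily divide the work of the cell. Heterotrimeric kinesin-2 carries intraflagellar transport trains to the tip of the cilium, where cilia are built and where Hedgehog signalling is controlled with the help of Kif7. Kinesin-1 and kinesin-3 carry vesicles, organelles and mRNA toward the ends of axons. Mitotic kinesins build the spindle, move chromosomes and organise the last steps of cytokinesis.

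Values are RPKM, read counts scaled to gene length and to a normalized library size. The wild-type libraries held 5652757 to 7674248 reads on genes, the mutant libraries 18662115 to 21299112 and the morphant libraries 9050375 to 16150393. A gene of 2 kb with 3 reads, taken as the floor, would stand at 0.265 to 0.309 RPKM in wild type, 0.0535 to 0.0615 RPKM in mutants and 0.0871 to 0.185 RPKM in morphants, so low wild-type values were the least certain. The floor covers counting error only. The targeted gene, *cep290*, was read at 2.60, 1.62 and 1.72 RPKM in wild type, 1.32, 1.14 and 1.29 RPKM in mutants and 5.45, 6.15 and 3.36 RPKM in morphants. A small deletion or a splice block need not change a read count, so these levels do not check the labels. The short label of the library titled wild-type replicate 3 has the number 2 in it, and the title was followed. Nothing in the labels says whether the pools of a group came from separate clutches, and p-values then measure only the spread between these pools.

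In wild type the mean level of a kinesin ran from 0.535 RPKM for one of a pair of rows named *klc4* (ENSDARG00000020635) to 24.7 RPKM for *kif5aa*, a kinesin-1 heavy chain, with a median of 3.53 RPKM. In mutants and morphants *kif5ba*, another kinesin-1 heavy chain, stood highest, at 29.5 and 28.9 RPKM. The median was 4.44 RPKM in mutants and 3.60 RPKM in morphants. Replicates scattered less in mutants than in the other groups: the coefficient of variation of a kinesin had a median of 15.2% in wild type, 6.73% in mutants and 15.4% in morphants, against 32.2%, 10.2% and 21.6% over all genes tested. A library with *klc4* (ENSDARG00000020635) at 0 reads, wild-type replicate 1, was the only one in which a kinesin was not read.

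Group differences over all 21982 genes were tested with limma on log2(RPKM + 0.1), and a gene was called when the Benjamini-Hochberg adjusted p was under 0.05 and the fold change above 2. Fold changes on this scale understate the change of low genes. In mutants 3 kinesins rose against wild type (*kif3a*, *kif15* and *KIF20B (1 of 2)*), against 10.4% of all genes tested, and 1 fell (*KIF9*), against 12.1%. In morphants 1 rose (*kif15*), against 7.45% of all genes, and 9 fell (*KIF9*, *kif17*, *kif6*, *kif5ab*, *klc3*, *kif1ab*, *kif16bb*, *kif26bb* and *KIF25*), against 14.9%. The kinesins called higher in mutants were thus 5.88% of the 51 and those called lower in morphants 17.6%. Between mutants and morphants 4 were higher in mutants (*KIF20B (1 of 2)*, *kif5c*, *kif26bb* and *KIF25*), against 3.48% of all genes, and 0 were lower, against 2.40% of all genes. At an unadjusted limma p under 0.05 there were 23 members in mutants against wild type, 9 of them below 0. In morphants against wild type there were 26, with 14 below 0. Between mutants and morphants there were 20, with 5 below 0. The share of all genes at this cut was not computed for any comparison, so these counts cannot be read as particular to kinesins. At any p, 12833 of all 21982 genes tested lay above 0 between mutants and morphants. In all, 13 of the 51 genes were called in at least 1 comparison and 38 in none.

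**Figure D1:**
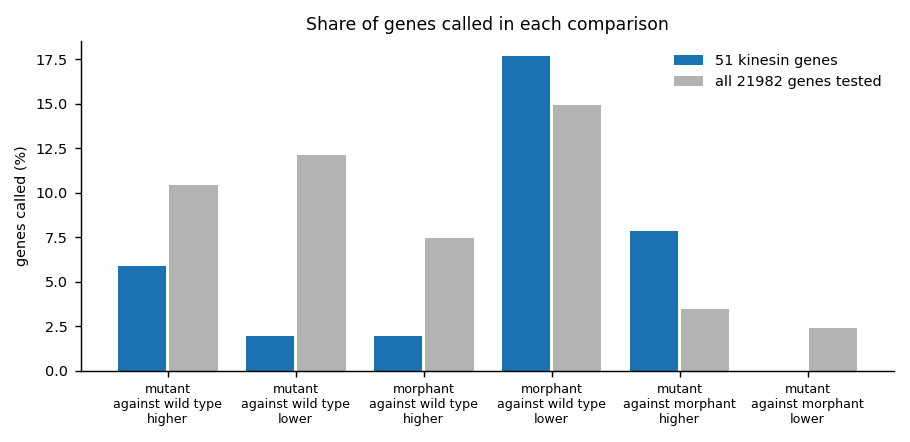
Share of the 51 kinesin genes (blue) and of all 21982 genes tested (grey) called in each comparison and direction, in percent. The kinesins' share lay below that of all genes in each of the 3 comparisons except for genes lower in morphants (17.6% against 14.9%) and genes higher in mutants than in morphants (7.84% against 3.48%).

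Without the fold limit, 12 kinesins were higher and 6 lower in mutants at an adjusted p under 0.05, against 17.8% and 18.2% of all genes. In morphants these counts were 9 and 13, against 16.6% and 18.5%. Mutants and morphants differed in 7 kinesins that were higher in mutants and 2 that were lower, against 5.28% and 8.33%. The median log2 fold change of the 51 genes was 0.05 in mutants and −0.10 in morphants, beside −0.02 and −0.05 over all genes tested. The split of the mutant calls into 3 higher and 1 lower rested on the scaling between libraries. With read totals in place of the normalized library sizes it became 19 and 1, while the median of all genes moved to 0.68. With cyclic loess normalization it became 3 and 2, and with libraries scaled on genes of 5 to 50 RPKM it became 2 and 3, with the median of all genes at −0.25. The morphant split of 1 and 9 became 3 and 5 with read totals, where the median of all genes stood at 0.22, and 0 and 12 with the scaling on genes of 5 to 50 RPKM, where it stood at −0.36.

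**Figure D2:**
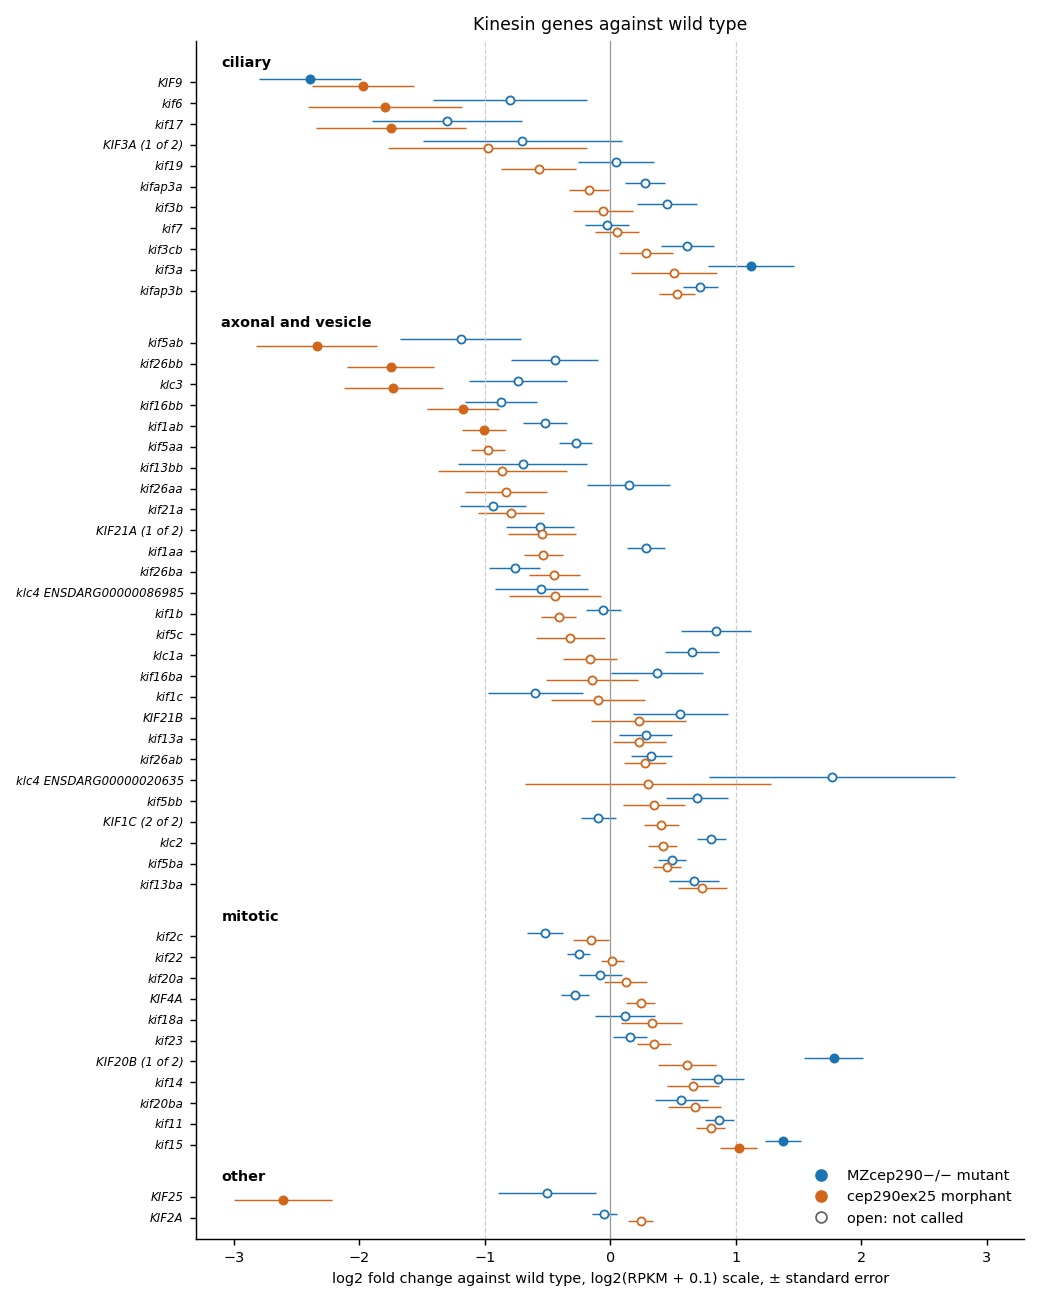
Log2 fold change against wild type of each of the 51 kinesin genes in mutants (blue) and morphants (orange) on the log2(RPKM + 0.1) scale, with the standard error from limma; filled points are called genes, open points are not, and dashed lines mark a fold of 2. The filled points on the right are *kif3a*, *kif15* and *KIF20B (1 of 2)*; 1 mutant point, *KIF9*, and 9 morphant points are filled on the left.

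Of the 11 ciliary kinesins, 1 rose (*kif3a*) and 1 fell (*KIF9*) in mutants, and 3 fell in morphants (*KIF9*, *kif17* and *kif6*). Each mutant count was 9.09% of the class, against 10.4% of all genes higher and 12.1% lower, and the morphant count was 27.3%, against 14.9%. *kif3a* encodes a motor subunit of heterotrimeric kinesin-2. It was read at 1.22, 1.15 and 0.679 RPKM in wild type, 2.62, 2.19 and 2.03 RPKM in mutants and 1.33, 1.92 and 1.17 RPKM in morphants. All mutant libraries lay above the wild-type ones, and 1 morphant library lay among the wild-type values. The mutants were 2.18-fold higher than wild type (log2 fold change 1.12, standard error 0.342, limma's adjusted p = 0.030). The value in morphants was 0.51 (limma's adjusted p = 0.28), and the difference between mutants and morphants, 0.62, did not pass the test (limma's adjusted p = 0.28). The call in mutants was lost without wild-type replicate 3 (0.88, limma's adjusted p = 0.064) and without each of the mutant libraries 1, 2 and 3 in turn (limma's adjusted p = 0.12, 0.089 and 0.074). It was also lost with group weights (limma's adjusted p = 0.055), the scaling on genes of 5 to 50 RPKM (0.90) and a pseudocount of 1 (0.71).

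The partners of *kif3a* lay on the same side in mutants by smaller amounts and none was called. *kif3b*, the other motor subunit of the heterotrimer, stood at 2.35, 1.99 and 2.36 RPKM in wild type, 3.13, 2.90 and 3.21 RPKM in mutants and 2.43, 2.38 and 1.67 RPKM in morphants. Its mutant libraries did not overlap with wild type, with a log2 difference of 0.45 (limma's adjusted p = 0.17). *kif3cb*, a copy of the gene for a further kinesin-2 motor subunit, stood at 4.25, 3.80 and 3.91 RPKM in wild type, 6.60, 5.89 and 5.98 RPKM in mutants and 5.81, 5.73 and 3.48 RPKM in morphants. It was 1.53-fold higher in mutants (limma's adjusted p = 0.049), below the fold limit, and its morphant libraries fell on both sides of the wild-type ones.

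The accessory subunit Kifap3 binds the motor pair and its cargo and is encoded by a pair of genes. *kifap3b* was read at 6.79, 5.57 and 6.37 RPKM in wild type, 10.2, 10.0 and 10.7 RPKM in mutants and 8.90, 10.4 and 7.99 RPKM in morphants. Both groups lay above wild type without overlap, by 0.72 in mutants (limma's adjusted p = 0.0040) and 0.53 in morphants (limma's adjusted p = 0.017) on the log2 scale, neither past a fold of 2. *kifap3a* was read at 6.13, 7.18 and 6.29 RPKM in wild type, 7.74, 8.28 and 7.78 RPKM in mutants and 6.30, 6.48 and 4.70 RPKM in morphants. Its log2 fold change was 0.28 in mutants (limma's adjusted p = 0.20), which turned to −0.03 with cyclic loess normalization, and −0.17 in morphants (limma's adjusted p = 0.43). Within a library the ratio of *kifap3b* to *kifap3a* needs no scaling between libraries. It was 1.11, 0.775 and 1.01 in wild type, 1.31, 1.21 and 1.37 in mutants and 1.41, 1.60 and 1.70 in morphants, so that *kifap3b* took the larger share in every mutant and morphant library and the groups did not overlap with wild type. With 3 libraries against 3 the exact permutation test cannot go below 0.1.

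A further row, *KIF3A (1 of 2)*, was close to the floor in several libraries. It stood at 0.830, 0.184 and 0.951 RPKM in wild type, 0.304, 0.110 and 0.663 RPKM in mutants and 0.0826, 0.651 and 0.166 RPKM in morphants. The lowest wild-type value rested on 2 reads, and the groups overlapped.

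*kif17* encodes the homodimeric kinesin-2, which is found in the outer segments of vertebrate photoreceptors. Its level was 2.18, 3.09 and 0.719 RPKM in wild type, 0.639, 0.650 and 0.617 RPKM in mutants and 0.262, 0.331 and 0.905 RPKM in morphants. Wild-type replicate 3 lay far below the other wild-type libraries and below morphant replicate 3. The fall in morphants passed the test by a narrow margin (log2 fold change −1.75, standard error 0.597, limma's adjusted p = 0.047, adjusted p between 0.013 and 0.85 over the alternatives), although the groups overlapped. It remained a call in 5 of the 20 alternatives that tested it. It was lost, for instance, without wild-type replicate 2 (−1.34, limma's adjusted p = 0.14) and without morphant replicate 1 (−1.46, limma's adjusted p = 0.13), and also without wild-type replicate 1, without morphant replicate 2 or without any mutant library. Mutant libraries enter this comparison only through the spread that the fit shares over the 3 groups. With wild type and morphants alone in the fit the call was lost as well (limma's adjusted p = 0.12). In mutants the value was −1.30 (limma's adjusted p = 0.12), and without wild-type replicate 3 it passed the test at −1.87 (limma's adjusted p = 0.027).

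**Figure D3:**
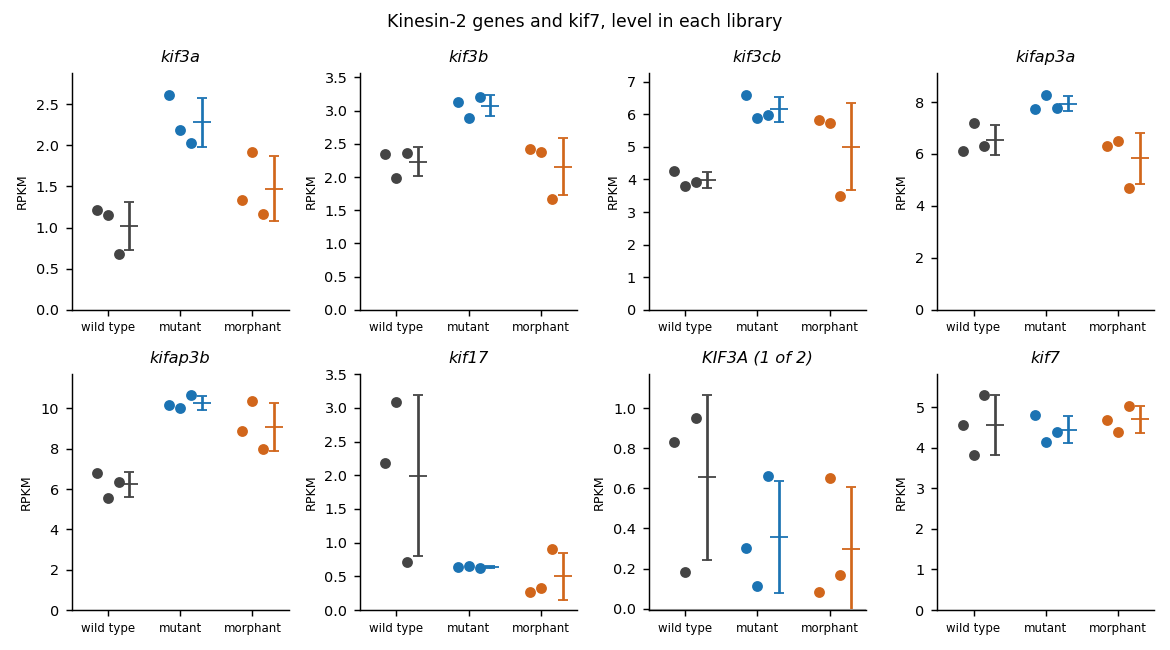
Level in RPKM of the 7 kinesin-2 genes and *kif7* in each library of wild type (grey), mutants (blue) and morphants (orange); points are libraries and the bar beside them is the mean ± SD of 3 libraries. All mutant points of *kif3a*, *kif3b*, *kif3cb*, *kifap3a* and *kifap3b* lie above the wild-type points, those of *kif17* lie below them, and the points of *kif7* overlap between all 3 groups.

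*kif7* encodes a kinesin of the ciliary tip that regulates Gli transcription factors in the Hedgehog pathway. It was read at 4.55, 3.83 and 5.29 RPKM in wild type, 4.80, 4.13 and 4.38 RPKM in mutants and 4.68, 4.38 and 5.03 RPKM in morphants. The groups overlapped, with log2 fold changes of −0.03 in mutants (standard error 0.176, limma's adjusted p = 0.92) and 0.05 in morphants (limma's adjusted p = 0.84). Of the 8 Hedgehog genes tested beside it, 1 was called higher in mutants and in morphants, against 10.4% and 7.45% of all genes, and 0 lower. That gene was *smo*, the membrane protein that transduces the Hedgehog signal, which rose from 4.85, 4.24 and 5.65 RPKM in wild type to 12.3, 11.5 and 11.2 RPKM in mutants (1.24, limma's adjusted p = 2.0e-04) and 12.6, 12.9 and 11.1 RPKM in morphants (1.31, limma's adjusted p = 2.7e-04).

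The kinesin-9 genes *KIF9* and *kif6* encode motors of motile cilia. *KIF9* was read at 2.84, 3.14 and 3.34 RPKM in wild type, 0.546, 0.565 and 0.426 RPKM in mutants and 1.27, 0.445 and 0.631 RPKM in morphants. Neither group overlapped with wild type, and the whole mutant group lay under 0.6 RPKM. It fell 5.25-fold in mutants (log2 fold change −2.39, standard error 0.408, limma's adjusted p = 0.0020) and 3.92-fold in morphants (−1.97, limma's adjusted p = 0.0057). The mutant call remained in all 20 alternatives that tested it, and the morphant call in 19 of 20, with cyclic loess normalization the exception (−0.94, limma's adjusted p = 0.15). *kif6* was much lower in level, at 0.483, 1.26 and 1.09 RPKM in wild type, 0.450, 0.565 and 0.389 RPKM in mutants and 0.216, 0.426 and 0.0362 RPKM in morphants. These values rested on 8 to 21 reads in wild type, and the last morphant value on 1 read. *kif6* passed the filter on low values only through wild-type replicates 2 and 3 and mutant replicate 2, with every morphant library under 0.5 RPKM. A fall was thus in practice the only call open to it in morphants. Leaving out wild-type replicate 2 or 3 or mutant replicate 2 left it untested. Its fall in morphants (−1.79, standard error 0.613, limma's adjusted p = 0.047) was a call in 5 of the 17 alternatives that tested it and turned to 0.75 with cyclic loess normalization. Without morphant replicate 3 it was −1.27 (limma's adjusted p = 0.13), and the call was also lost without morphant replicate 1 and without mutant replicate 1 or 3. With wild type and morphants alone in the fit the call was lost too (limma's adjusted p = 0.12). *kif19*, which in mouse limits the length of motile cilia, was called in neither comparison, with 0.05 in mutants (limma's adjusted p = 0.92) and −0.57 in morphants (limma's adjusted p = 0.17).

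Whole embryos mix many cell types, and fewer cells of a type and less RNA per cell cannot be told apart in these data. Among markers of multiciliated cells, 1 of 10 rows tested was called lower in mutants (*ccdc103*) and 0 in morphants, against 12.1% and 14.9% of all genes. Their summed level ran from 12.7 to 23.4 RPKM in wild type, 8.96 to 9.98 RPKM in mutants and 11.9 to 17.1 RPKM in morphants. The median log2 fold change of the 10 rows was −0.33 in mutants and 0.06 in morphants. In wild-type replicate 1 the markers *foxj1b* and *tekt1* were listed at 0. A row named *dnah9* (ENSDARG00000097705) stood at 7.19 RPKM in wild-type replicate 1. It was at 0 in wild-type replicate 3 and in morphant replicates 2 and 3. A row named *DNAH9* (ENSDARG00000087112) was at 0 in wild-type replicate 2. Among markers of photoreceptors, 6 of 7 rows tested were called lower in mutants and 6 of 7 in morphants, against the same shares of all genes. Their summed level was 259 to 338 RPKM in wild type, 35.8 to 40.8 RPKM in mutants and 24.2 to 31.7 RPKM in morphants. The cone opsin *opn1mw1* was at 0 in every library. The part of either cell type in the levels of *KIF9*, *kif6* and *kif17* was not tested.

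Axonal and vesicle kinesins were the largest class. Of the 27, 0 were called higher and 0 lower in mutants, against 10.4% and 12.1% of all genes. Without the fold limit, 5 were higher and 4 lower in mutants at an adjusted p under 0.05. These were 18.5% and 14.8% of the class, near the 17.8% and 18.2% of all genes. In morphants 5 fell (*kif5ab*, *klc3*, *kif1ab*, *kif16bb* and *kif26bb*), 18.5% of the class against 14.9% of all genes, and 0 rose, against 7.45%. The class had a median log2 fold change of −0.06 in mutants and −0.41 in morphants. In morphants 9 of the 27 genes lay above 0, against 10558 of all 21982 genes tested. The median in morphants stayed below 0 under each scaling tried, from −0.12 with read totals to −0.73 with the scaling on genes of 5 to 50 RPKM, whereas that in mutants turned to 0.67 with read totals.

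Kinesin-1 is a tetramer of a pair of heavy chains with motor activity and a pair of light chains that bind cargo. In mammals KIF5A and KIF5C are enriched in neurons and KIF5B is made in most cells. *kif5ab*, a copy of the *kif5a* gene, was read at 3.37, 1.97 and 1.04 RPKM in wild type, 0.761, 0.887 and 0.703 RPKM in mutants and 0.370, 0.359 and 0.191 RPKM in morphants. The groups were in the order wild type, mutants, morphants with no overlap, although the wild-type libraries differed from each other more than 3-fold. It fell 5.07-fold in morphants (log2 fold change −2.34, standard error 0.485, limma's adjusted p = 0.0057), a call in 19 of 20 alternatives. In mutants the value was −1.19 (limma's adjusted p = 0.084), which passed the test without wild-type replicate 3, the lowest wild-type library (−1.61, limma's adjusted p = 0.030).

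The values of *kif5aa*, the other *kif5a* copy, and of *kif5ba* are described too, a choice made after their values were seen. The most abundant kinesin was *kif5aa* in wild type and *kif5ba* in mutants and morphants. *kif5aa* stood at 20.9, 25.5 and 27.6 RPKM in wild type, 21.0, 19.5 and 20.1 RPKM in mutants and 11.1, 11.99 and 14.4 RPKM in morphants. The morphants lay below both other groups without overlap, 1.96-fold below wild type (log2 fold change −0.97, standard error 0.134, limma's adjusted p = 9.0e-04), just inside the fold limit. It became a call in 6 of 21 alternatives, among them those without wild-type replicate 1 (−1.09) and without morphant replicate 3 (−1.08). *kif5ba*, a copy of *kif5b*, stood at 19.3, 21.1 and 22.6 RPKM in wild type, 30.0, 29.2 and 29.2 RPKM in mutants and 33.0, 28.3 and 25.4 RPKM in morphants. It was 1.40-fold higher in mutants (limma's adjusted p = 0.0082) and 1.37-fold higher in morphants (limma's adjusted p = 0.012), with no overlap with wild type.

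The ratio of *kif5aa* to *kif5ba* within a library does not depend on the scaling between libraries. It was 1.08, 1.21 and 1.22 in wild type, 0.701, 0.667 and 0.688 in mutants and 0.337, 0.424 and 0.567 in morphants. In every wild-type library *kif5aa* was thus the more abundant of the pair per length, and in every mutant and morphant library *kif5ba* was. Of the summed RPKM of the 5 heavy chain genes, *kif5aa* made up 40.4% to 47.2% in wild type, 30.9% to 32.0% in mutants and 21.4% to 29.3% in morphants. *kif5ba* made up 35.8% to 38.7%, 44.9% to 46.4% and 51.6% to 63.4%. The 3 groups did not overlap in either share.

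**Figure D4:**
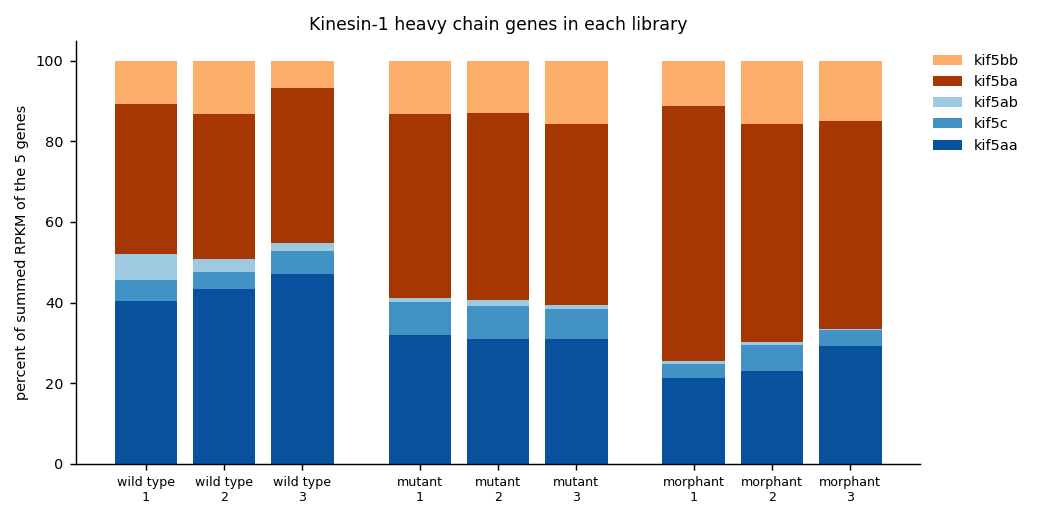
Share of each of the 5 kinesin-1 heavy chain genes in their summed RPKM, in percent, in each library; *kif5aa*, *kif5c* and *kif5ab* are in blue, *kif5ba* and *kif5bb* in brown and orange. The share of *kif5aa* falls from 40.4% to 47.2% in the wild-type libraries to 30.9% to 32.0% among mutants and 21.4% to 29.3% among morphants.

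*kif5c* was the only heavy chain gene called between mutants and morphants, although *kif5aa* and *kif5ab* also stood higher in mutants without overlap. It was read at 2.64, 2.50 and 3.34 RPKM in wild type, 5.28, 5.19 and 4.88 RPKM in mutants and 1.71, 3.42 and 1.88 RPKM in morphants. The mutants lay above every other library, and the morphants overlapped with wild type. The mutants were 2.24-fold higher than morphants (log2 difference 1.16, standard error 0.277, limma's adjusted p = 0.024). Against wild type the values were 0.84 in mutants (limma's adjusted p = 0.040), short of the fold limit, and −0.32 in morphants (limma's adjusted p = 0.40). The call against morphants was lost without each of the mutant libraries (limma's adjusted p = 0.10, 0.097 and 0.085) and without morphant replicate 1 or 3 (limma's adjusted p = 0.079 and 0.080), and with a pseudocount of 1 (0.91).

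Among the light chains, *klc3* fell in morphants. In mouse Klc3 is best known from spermatids. Its values were 2.31, 2.1 and 1.81 RPKM in wild type, 1.00, 1.05 and 1.63 RPKM in mutants and 0.659, 0.326 and 0.757 RPKM in morphants, with no overlap between any of the groups. The change in morphants was −1.73 (standard error 0.392, limma's adjusted p = 0.0087), on 11 to 14 reads in each morphant library and 20 to 22 in each wild-type library. It was no longer a call with cyclic loess normalization (−0.80, limma's adjusted p = 0.20), group weights (limma's adjusted p = 0.066) or a pseudocount of 1 (−0.97). *klc2* and *klc1a*, the most abundant light chains, were higher in mutants within the fold limit, *klc2* 1.75-fold (limma's adjusted p = 8.1e-04) and *klc1a* 1.57-fold (limma's adjusted p = 0.040). The sum of the 5 light chain genes ran from 23.3 to 25.3 RPKM in wild type, 36.4 to 38.6 RPKM in mutants and 24.8 to 28.1 RPKM in morphants.

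Kinesin-3 motors carry synaptic vesicle precursors, mitochondria and endosomes. *kif1ab*, a copy of the synaptic vesicle motor gene *kif1a*, was read at 6.10, 8.22 and 7.78 RPKM in wild type, 4.85, 5.55 and 4.83 RPKM in mutants and 3.51, 3.24 and 4.06 RPKM in morphants. The groups followed the order wild type, mutants, morphants without overlap. The fall in morphants was 2.01-fold, just past the limit (log2 fold change −1.01, standard error 0.176, limma's adjusted p = 0.0026). It went under the limit without wild-type replicate 2 (−0.92) or 3 (−0.96), without morphant replicate 1 (−0.99) or 2 (−0.94), and with read totals (−0.72), at an adjusted p of at most 0.019 in every alternative. In mutants the value was −0.52 (limma's adjusted p = 0.045). The other copy, *kif1aa*, was 1.76-fold higher in mutants than in morphants (limma's adjusted p = 0.0086), with 0.29 in mutants and −0.53 in morphants against wild type. The mutant value of *kif1aa* turned to −0.01 with cyclic loess normalization.

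*kif16bb* encodes a copy of Kif16b, an endosome motor. Its level was 2.74, 2.78 and 2.49 RPKM in wild type, 1.62, 1.54 and 1.12 RPKM in mutants and 1.20, 0.935 and 1.26 RPKM in morphants. Both groups lay below wild type without overlap. The fall was 2.26-fold in morphants (−1.17, standard error 0.286, limma's adjusted p = 0.012), while the mutant value of −0.87 (limma's adjusted p = 0.040) did not reach the fold limit. The morphant call was lost with cyclic loess normalization (−0.81, limma's adjusted p = 0.075), group weights (limma's adjusted p = 0.086), read totals (−0.89) and a pseudocount of 1 (−0.78).

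*kif26bb* belongs to the kinesin-11 subfamily, whose mammalian members bind microtubules without moving along them. The gene was read at 2.22, 1.66 and 1.57 RPKM in wild type, 1.08, 1.39 and 1.45 RPKM in mutants and 0.380, 0.581 and 0.451 RPKM in morphants. The morphant libraries lay under all others. It fell 3.36-fold in morphants (−1.75, standard error 0.346, limma's adjusted p = 0.0046) and was 2.47-fold higher in mutants than in morphants (1.31, limma's adjusted p = 0.036). The fall was not a call with cyclic loess normalization (−0.67, limma's adjusted p = 0.16) or a pseudocount of 1 (−0.93). The call between mutants and morphants was lost with both of these, with no filter on low values (limma's adjusted p = 0.062), with the replicate number as a block (limma's adjusted p = 0.085), without each mutant library (limma's adjusted p = 0.098 to 0.15) and without morphant replicate 1 or 3 (limma's adjusted p = 0.097 and 0.081). Of the 22 class members not called in morphants, fold changes ran from −0.97 to 0.73 on the log2 scale. *kif1c* is among the uncertain ones: its mutant value, −0.60, turned to 0.12 with read totals and was a call without wild-type replicate 3 (−1.11, limma's adjusted p = 0.0021).

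Of 18 genes tested for adaptors and cargo links of axonal kinesins, 1 was called higher and 0 lower in mutants, against 10.4% and 12.1% of all genes, and 1 higher and 4 lower in morphants, against 7.45% and 14.9%. Those lower in morphants were *mapk8ip2* and *mapk8ip3*, scaffolds that link kinesin-1 to cargo, *ppfia4*, a liprin that binds Kif1a, and *CLSTN2 (2 of 2)*, a calsyntenin. *mapk8ip3* was read at 7.22, 8.09 and 6.45 RPKM in wild type, 4.94, 4.57 and 4.57 RPKM in mutants and 2.75, 2.97 and 3.11 RPKM in morphants, with a change of −1.27 in morphants (limma's adjusted p = 6.0e-04) and −0.61 in mutants (limma's adjusted p = 0.015). *rhot2*, a mitochondrial GTPase that recruits kinesin adaptors, was the gene called higher in both groups. Its wild-type values, 4.13, 3.29 and 0.922 RPKM, differed between libraries.

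Among the 10 neuronal markers that could be tested, mutants had 5 calls above and 0 below wild type, against 10.4% and 12.1% of all genes, and morphants 0 above and 2 below, against 7.45% and 14.9%. Their summed level was 266 to 286 RPKM in wild type, 409 to 435 RPKM in mutants and 209 to 214 RPKM in morphants, and 1 further marker, *gap43*, was at 0 in every library. The axonal and vesicle kinesins together stood at 147 to 160 RPKM in wild type, 161 to 166 RPKM in mutants and 134 to 138 RPKM in morphants. Both the marker and the kinesin sums rest on the deposited scaling. The scaling on genes of 5 to 50 RPKM divides wild-type libraries by 0.848 to 0.911 and mutant libraries by 1.03 to 1.04. It thus raises the wild-type sums against the mutant ones, and the small kinesin difference between them depends on the scaling. The part of the neuronal markers in the kinesin levels was not tested.

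Of the 11 mitotic kinesins, 2 rose (*kif15* and *KIF20B (1 of 2)*) in mutants and 1 (*kif15*) in morphants, and 0 fell in either group. These were 18.2% and 9.09% of the class, against 10.4% and 7.45% of all genes. The median log2 fold change was 0.16 in mutants and 0.35 in morphants, with 7 and 10 of the 11 above 0. Over all 21982 genes tested, 10805 lay above 0 in mutants and 10558 in morphants. The class median in mutants turned to −0.13 with cyclic loess normalization and −0.08 with the scaling on genes of 5 to 50 RPKM. That in morphants was 0.10 and 0.03 under them. The sum over the 11 genes was 87.6 to 88.1 RPKM in wild type, 105 to 107 RPKM in mutants and 108 to 114 RPKM in morphants, with both groups above every wild-type library. These sums were taken on the deposited values alone and were not recomputed under the other scalings.

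Kif15 holds the spindle poles apart alongside Kif11, the bipolar spindle motor. *kif15* was read at 3.10, 3.88 and 3.63 RPKM in wild type, 9.88, 9.42 and 8.64 RPKM in mutants and 7.06, 7.81 and 6.90 RPKM in morphants. The groups did not overlap. It rose 2.60-fold in mutants (log2 fold change 1.38, standard error 0.145, limma's adjusted p = 1.5e-04), a call in all 21 alternatives, and 2.03-fold in morphants (1.02, limma's adjusted p = 0.0010), where it lay near the fold limit and was a call in 15 of 21. Without wild-type replicate 1 the morphant value was 0.93, and without morphant replicate 2 it was 0.97. *kif11* is described beside it, a choice made after its values were seen. It stood at 18.0, 15.8 and 13.9 RPKM in wild type, 28.4, 29.8 and 28.8 RPKM in mutants and 28.9, 29.4 and 24.8 RPKM in morphants. Both groups lay above wild type without overlap, 1.83-fold in mutants (limma's adjusted p = 5.0e-04) and 1.74-fold in morphants (limma's adjusted p = 0.0011), short of the fold limit.

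*KIF20B (1 of 2)* was the kinesin with the largest called rise. Kif20b is a kinesin-6 protein needed in mouse for timely cytokinesis of neural progenitors. The gene was read at 1.85, 2.11 and 1.65 RPKM in wild type, 6.45, 6.76 and 6.69 RPKM in mutants and 2.76, 3.88 and 2.26 RPKM in morphants. The mutants lay above all other libraries, and the morphants lay between. It rose 3.44-fold in mutants (log2 fold change 1.78, standard error 0.234, limma's adjusted p = 4.9e-04), a call in all 21 alternatives, and was 2.25-fold higher in mutants than in morphants (1.17, limma's adjusted p = 0.011). The latter call was lost without each mutant library (limma's adjusted p = 0.057 to 0.062) and without morphant replicate 3, where the difference of 0.998 was under the fold limit. Its ratio to *kif20a*, a kinesin-6 gene of the central spindle, was 0.318, 0.293 and 0.197 in wild type, 0.986, 0.988 and 1.01 in mutants and 0.314, 0.492 and 0.346 in morphants. The other *kif20b* copy, *kif20ba*, was 1.59-fold higher in morphants (limma's adjusted p = 0.034), and *kif14*, a kinesin of the midbody, was 1.81-fold higher in mutants (limma's adjusted p = 0.012). *kif2c*, a microtubule depolymerase at centromeres, was the only mitotic kinesin lower in mutants at an adjusted p under 0.05, by 0.52 on the log2 scale from a mean of 12.2 ± 1.61 RPKM in wild type to 8.45 ± 0.678 RPKM (SD, n = 3, limma's adjusted p = 0.020).

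**Figure D5:**
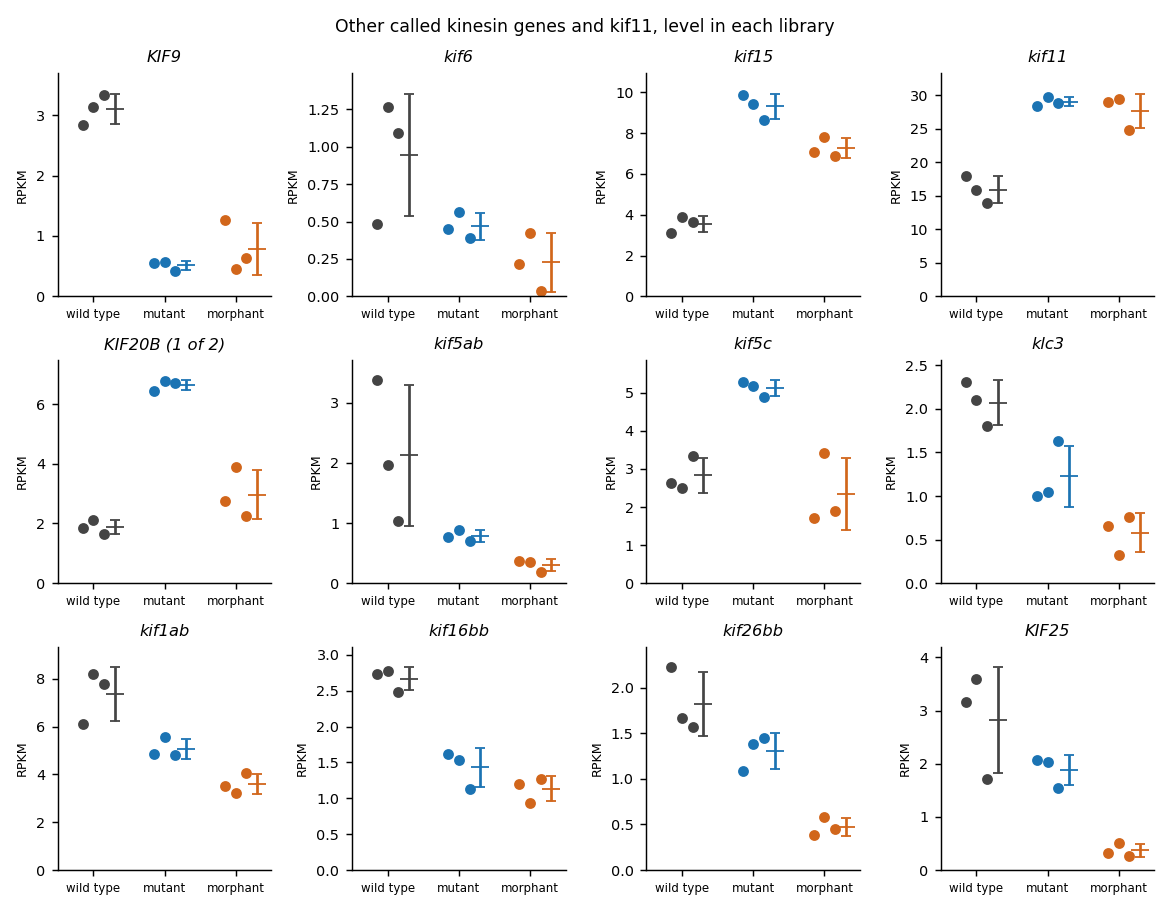
Level in RPKM of *kif11* and of 11 called kinesin genes other than *kif3a* and *kif17* in each library of wild type (grey), mutants (blue) and morphants (orange); points are libraries and the bar beside them is the mean ± SD of 3 libraries. *kif15* and *KIF20B (1 of 2)* stand highest in mutants, *KIF9* is low in both groups, and *KIF25* and *kif26bb* are lowest in the morphant libraries, at 0.271 to 0.510 and 0.380 to 0.581 RPKM.

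Of 14 mitotic partner genes tested, 4 were called higher in mutants (*birc5a* of the chromosomal passenger complex, the microtubule bundler *prc1b*, the checkpoint gene *mad2l1* and the spindle pole gene *aspm*) and 2 in morphants (*birc5a* and *aspm*), against 10.4% and 7.45% of all genes, with 0 lower in either group. *aspm* was read at 3.34, 4.27 and 5.79 RPKM in wild type, 12.03, 11.4 and 11.5 RPKM in mutants and 11.9, 12.6 and 11.2 RPKM in morphants (1.40 and 1.43, limma's adjusted p = 4.9e-04 and 6.7e-04). The kinesin-14 genes *kifc1* and *kifc3* and the kinetochore kinesin gene *cenpe*, whose names fall outside the rule, were called in neither group against wild type. Of 11 markers of dividing cells tested, 3 were called higher and 1 lower in mutants, against 10.4% and 12.1% of all genes, and 4 higher and 0 lower in morphants, against 7.45% and 14.9%. Their summed level was 389 to 471 RPKM in wild type, 485 to 511 RPKM in mutants and 551 to 585 RPKM in morphants. The largest term was *pcna*, at 211 to 279 RPKM in wild type. It was not called in mutants (−0.15, limma's adjusted p = 0.31) or morphants (0.11, limma's adjusted p = 0.45). A pair of rows named *rrm2* moved in opposite directions in mutants, and both were among the calls higher in morphants. *mcm2* was at 0 in every library. The part of the number of dividing cells in the kinesin levels was not tested.

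Of the pair of genes in no class, *KIF25* fell in morphants alone, and *KIF2A* was called in no comparison. Human KIF25 has been tied to the positioning of centrosomes before mitosis. *KIF25* was read at 3.16, 3.60 and 1.71 RPKM in wild type, 2.07, 2.03 and 1.55 RPKM in mutants and 0.324, 0.510 and 0.271 RPKM in morphants. The morphant libraries, with 8, 20 and 5 reads, lay far under all others, and the mutants overlapped with wild type. It fell 6.11-fold in morphants (log2 fold change −2.61, standard error 0.390, limma's adjusted p = 0.0013) and was 4.30-fold higher in mutants than in morphants (limma's adjusted p = 0.0080). Both calls remained in all 20 alternatives that tested them. The mutant value against wild type was −0.51.

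Cytoplasmic dynein moves along microtubules in the direction opposite to most kinesins. Of 20 dynein, dynactin and regulator genes tested, 2 were called higher (*dctn3* and *nde1*) and 1 lower (*actr10*) in mutants, against 10.4% and 12.1% of all genes, and 2 higher (*dctn3* and *ndel1b*) and 1 lower (*bicd1a*) in morphants, against 7.45% and 14.9%. The dynactin subunit *dctn3* was read at 6.08, 8.93 and 5.04 RPKM in wild type, 20.3, 20.2 and 22.8 RPKM in mutants and 16.3, 18.9 and 15.1 RPKM in morphants, with changes of 1.68 (limma's adjusted p = 2.5e-04) and 1.35 (limma's adjusted p = 0.0011). *actr10*, another dynactin subunit, stood at 47.0, 47.6 and 62.1 RPKM in wild type, 22.1, 23.3 and 24.3 RPKM in mutants and 43.4, 34.0 and 39.9 RPKM in morphants, with a change of −1.15 in mutants (limma's adjusted p = 2.3e-04) and −0.41 in morphants (limma's adjusted p = 0.037). Both dynactin genes separated mutants from wild type without overlap, in opposite directions.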

How the data were processed

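Whole-embryo polyA RNA of 9 libraries (3 per group) was sequenced as 50-bp single-end reads, which the authors aligned to Zv9 with STAR and counted with HTSeq; versions, annotation release and counting options are not given in the sources used here. The authors deposited RPKM values with gene lengths. In every library 100% of RPKM times length were whole multiples of 1 read (tolerance 0.01), which gave the reads quoted. Copies with near-identical sequence could share reads.

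Genes reaching 0.5 RPKM in 3 or more libraries were tested on log2(RPKM + 0.1) with limma 3.58.1 (trend, 3 group means; R 4.3.3) and called at an adjusted p under 0.05 over all genes and a fold above 2. The fit was also run on simulated data. The settings and outcome of that run are not given here, so it does not check the calls. Exact permutation tests of 3 against 3 cannot go below 0.1. All called members, the kinesin-2 genes that the rule on names found and *kif7* are given in full. Members and lists were chosen with earlier results of these data known. One of the marker genes is not reported here, and its list was counted and summed without it. Sequences and coordinates are not used here. Tables used pandas 2.3.3 and numpy 2.4.6 under Python 3.11.15, and plots matplotlib 3.10.9.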

Additional observations from a re-analysis of the deposited data

Results flagged for a closer look

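*KIF4A*, *kif1aa* and *KIF1C (2 of 2)* differed between mutants and morphants while lying on opposite sides of wild type in every library. For *KIF4A*, a chromosome-bound kinesin of mitosis, the difference between mutants and morphants was −0.5225 on the log2 scale (limma's adjusted p = 0.016), with −0.28 in mutants and 0.24 in morphants against wild type. For *kif1aa* it was 0.8194 (limma's adjusted p = 0.0086), with 0.29 and −0.53. For *KIF1C (2 of 2)*, a kinesin-3 gene, it was −0.5025 (limma's adjusted p = 0.043), with −0.10 and 0.41. None of these reached a fold of 2, and the opposite positions rest on the same 3 wild-type libraries. Groups without overlap were common among the kinesins: 66.7% of the 51 did not overlap with wild type in mutants and 54.9% in morphants. The matching share of all genes tested is not given here, so these shares cannot be read as particular to kinesins. The share of all genes tested that lay on opposite sides was not computed either, so *KIF4A*, *kif1aa* and *KIF1C (2 of 2)* cannot be set against it. The difference of *kif5c*, 1.161 (limma's adjusted p = 0.024), was also a call, with 0.84 in mutants and −0.32 in morphants, where the morphant libraries overlapped with wild type.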

How the results depend on the processing

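The counts of kinesins called, their fold changes and their class medians were recomputed under 21 alternatives. Of these, 19 were planned and 2 were added after seeing the data (voom on the recovered reads and scaling on genes of 5 to 50 RPKM). Calls of partner and marker genes are given from the main fit alone. Summed levels and ratios are given from the deposited values alone. Of the 18 calls of a gene in a comparison, 5 held in every alternative that tested them (*kif15*, *KIF9* and *KIF20B (1 of 2)* in mutants, *KIF25* in morphants and between mutants and morphants), and 8 were lost without at least 1 library; 18 members were called in no setting. Planned count tests (edgeR and DESeq2) were not run on the reads recovered from RPKM, and voom on those reads was added instead.

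Kinesins higher in mutants numbered 3, 19 with read totals. Those lower in mutants numbered 1, 0 under a filter at a mean of 2 RPKM, 2 with cyclic loess, and 3 with voom or the scaling on genes of 5 to 50 RPKM. Those higher in morphants numbered 1, 3 with read totals, and 0 with a pseudocount of 1, median-of-ratios scaling, cyclic loess or the scaling on genes of 5 to 50 RPKM. Those lower in morphants numbered 9, 3 with a pseudocount of 1 or cyclic loess, only 1 under the mean filter of 2 RPKM, and 5 with read totals or group weights. With only the groups compared in the fit they numbered 7, *kif17* and *kif6* being lost. Those higher in mutants than in morphants numbered 4, 1 with a pseudocount of 1, 9 with read totals and 2 under the mean filter of 2 RPKM. The mean filter tested 35 of the 51 kinesins; for the others the cause was not tested.

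Leaving out 1 library in turn gave 2 to 3 higher and 1 to 4 lower in mutants (4 without wild-type replicate 3, 2 without wild-type replicate 1), 0 to 1 higher (0 without wild-type replicate 1 or morphant replicate 2) and 6 to 9 lower in morphants, and 1 to 5 higher in mutants than in morphants (1 without any mutant library or morphant replicate 3, 2 without morphant replicate 1) with 0 lower.

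With the replicate number as a block the counts were 3 and 1 in mutants, 1 and 7 in morphants (*kif17* and *kif6* lost) and 3 and 0 between mutants and morphants. Same-numbered libraries did not deviate together (9 correlations from −0.041 to 0.0060), so the numbers were not taken as pairs.

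Signs were followed only for a gene in a comparison where at least 1 setting gave a call. Among these, directions turned for *kifap3a* (−0.0319) and *kif1aa* (−0.0135) in mutants and *kif6* (0.75) in morphants with cyclic loess. With read totals the direction turned for *kif1c* in mutants (0.12). Members without any call turned as well: 41 of the 51 kinesins lay above 0 in mutants with read totals, beside 26 in the main fit. Wild-type libraries were the shallowest, with a median of 77 reads on a kinesin against 519 in mutants and 193 in morphants, and limit what can be read from low genes.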

Other observations

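A few rows that the names table or the symbol tie to kinesins carry other names and were not members. *si:rp71-84d9.2*, which the names table gives as *kif28*, was called lower in both groups: it was read at 1.42, 1.57 and 1.08 RPKM in wild type, 0.369, 0.0941 and 0.0580 RPKM in mutants and 0.317, 0.178 and 0 RPKM in morphants (−2.57 and −2.67, limma's adjusted p = 0.017 and 0.014). It passed the filter on low values through the wild-type libraries alone, so that a lower level in the other groups was the only call it could receive. *KIFC2*, a kinesin-14 gene, was called higher in mutants than in morphants, at 5.76, 3.87 and 5.55 RPKM against 1.55, 1.75 and 1.49 RPKM (1.59, limma's adjusted p = 0.016), with 1.98, 5.06 and 2.45 RPKM in wild type. *CABZ01076801.1*, which the names table gives as *KIF3C*, a kinesin-2 gene, was called in no comparison. In wild type it was read at 6.90, 2.70 and 3.39 RPKM. Its levels were 8.76, 7.75 and 6.31 RPKM in mutants and 4.30, 3.27 and 2.74 RPKM in morphants. Its log2 fold change was 0.90 in mutants (limma's adjusted p = 0.062) and −0.23 in morphants (limma's adjusted p = 0.62). These rows were looked up after the results of the members were seen.

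Markers of skeletal muscle and liver gave the background of the other tissues. Of 4 muscle markers tested, 3 were called lower in mutants and 0 in morphants, against 12.1% and 14.9% of all genes. Their summed level was 14477 to 19521 RPKM in wild type, 5029 to 5306 RPKM in mutants and 8582 to 12110 RPKM in morphants. Of 3 liver markers, 2 were called lower in mutants and 1 in morphants, against the same shares of all genes.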
